A study of Mus musculus with 20 samples.

Results

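This account covers 44 mouse genes of glucose uptake, glycolysis and the branches that leave it, measured on Illumina bead arrays in pluripotent cells and in fibroblast-titled samples. The genes were taken by symbol from a list, and 38 of the 44 had a probe among the 16593 genes with a symbol on the array. Gpi1, Pfkfb1, Eno1, Ldhb, G6pdx and Pgd were not analysed here. The series holds 20 arrays in 5 groups of 4. The group sFB-protein-iPS is labelled as induced pluripotent stem (iPS) cells, which are somatic cells brought to a state like that of embryonic stem (ES) cells. E14-mES, GFPoct4 and C57-mES are labelled as ES cells and are taken here as 3 ES lines. FVB-sFB is titled like a fibroblast sample in a series about skin fibroblasts, but its source and cell type fields also say embryonic stem cell, so its labels conflict and the title is used. No genotype, strain, passage, medium or oxygen field is given for any group. The titles hold FVB and C57, which read as mouse strain names. Differences between groups and differences between strains therefore cannot be told apart here. The labels do not say that the 4 arrays of a group came from separate cultures, so p-values here measure array-to-array spread, which may be technical.

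Glycolysis turns glucose into pyruvate in the cytosol. Transporters bring glucose in, hexokinase traps it as a phosphate, phosphofructokinase commits it to breakdown, and pyruvate then either becomes lactate or enters mitochondria through pyruvate dehydrogenase, which its kinases switch off. Side routes store glucose as glycogen or send it through the pentose phosphate pathway to make nucleotide sugar and reducing power. Mouse ES cells are known for a high glycolytic rate, and many of these genes are known targets of hypoxia-inducible factor and of Myc, both of which bind short CG-containing motifs.

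Marker genes followed the titles. Of 10 fibroblast markers measured, 9 lay above background on every FVB-sFB array (Postn did not), and all 10 pluripotency markers lay above background on all 16 pluripotent arrays, whereas 2 to 5 of them did so on an FVB-sFB array (Zfp42 on all 4). The mean of the fibroblast list was 10.86 to 11.18 log2 units on the FVB-sFB arrays and at most 7.93 in any other group. Of the 3 macrophage markers measured, Lyz2 averaged 11.07 in FVB-sFB, and Ptprc and Adgre1 lay above background on no array. The adipocyte marker Pparg averaged 9.19 in FVB-sFB, where the other 4 of its list lay above background on no array. The muscle marker Acta1 averaged 11.01 there, where Ckm lay above background on no array and Des and Myog on all 4. Des went the other way, at 7.02 in FVB-sFB against 8.83 to 9.39 in the pluripotent groups. Myog averaged 6.96 in FVB-sFB and 6.70 to 7.06 in the pluripotent groups. The part of such cells in the differences from FVB-sFB was not tested. The background level of an array was the 95th percentile of its 1305 olfactory and vomeronasal receptor probes, since the files hold no detection values. By this measure 48.18% to 53.49% of probes were above background, and raw median intensity ran from 94.42 to 101.1 in sFB-protein-iPS, the 4 lowest arrays of the series, and up to 178.7 in E14-mES replicate 4, the highest. The sFB-protein-iPS arrays also had the lowest shares above background (48.18% to 48.76%), and the part of brightness in the results was not tested beyond the scalings and left-out arrays given below. The 4 FVB-sFB arrays fell into pairs: deviations from the group mean correlated at 0.53 between arrays 1 and 2 and at 0.39 between arrays 3 and 4, and at most at -0.71 across the pairs. The pairs differed in several of the genes below, among them Pdk4 (means of 10.41 and 8.86 log2 units), Eno3 (9.78 and 8.66), Slc2a3 (8.67 and 7.62) and Hk2 (12.50 and 11.56). Calls that were lost without one pair are named where they occur. Of the 38 genes, 29 lay above background on all 20 arrays, and Slc16a1 and Pygm did so on all 4 arrays of no group.

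The promoters of these genes were read from RefSeq (GRCm38.p6), as windows from 250 bases before to 50 bases after each annotated start. Of the 38 genes, 36 matched, with 50 windows, and Slc2a3 and Slc2a4 had no entry. The motifs searched were ACGTG, the core shared by the hypoxia response element and the Myc E-box (CACGTG), and GCGTG, the other common form of the response element, on both strands, so that 1 CACGTG counts on each strand. At least 1 of them was found for 31 of the 36 genes (86.1%), compared with 55.6% of the 13336 genes that have a probe on the array and 46.7% of all 27025 genes in the table. By window the shares were 78.0% for the listed genes, 51.8% for genes on the array and 43.8% for all genes. The GC-box letters GGGCGG were in 52.0% of the listed windows, 49.6% of those of genes on the array and 35.7% of all windows. Shown here are 4 genes whose level differed between the ES lines, printed 5′ to 3′ on the gene's own strand with the matches, in either orientation, in capitals. Ldha (chr7:46845554-46845853, plus strand) holds 5 ACGTG and 2 GCGTG matches, Hk2 (chr6:82774405-82774704, minus strand) holds 2 ACGTG, Pfkp (chr13:6648722-6649021, minus strand) holds 4 GCGTG, and Tpi1 (chr6:124814109-124814408, minus strand) holds neither.
Ldha: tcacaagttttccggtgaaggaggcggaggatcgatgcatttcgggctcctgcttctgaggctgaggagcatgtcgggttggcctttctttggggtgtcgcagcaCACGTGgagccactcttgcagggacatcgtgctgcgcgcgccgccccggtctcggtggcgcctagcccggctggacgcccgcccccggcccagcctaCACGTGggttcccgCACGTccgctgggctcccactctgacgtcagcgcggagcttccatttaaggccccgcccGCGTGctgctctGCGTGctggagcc
Hk2: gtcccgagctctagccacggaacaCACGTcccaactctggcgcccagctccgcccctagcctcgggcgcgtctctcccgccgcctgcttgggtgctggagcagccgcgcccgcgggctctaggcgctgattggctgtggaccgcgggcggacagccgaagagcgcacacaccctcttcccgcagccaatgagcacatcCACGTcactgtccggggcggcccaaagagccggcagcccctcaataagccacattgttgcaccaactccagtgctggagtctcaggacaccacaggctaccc
Pfkp: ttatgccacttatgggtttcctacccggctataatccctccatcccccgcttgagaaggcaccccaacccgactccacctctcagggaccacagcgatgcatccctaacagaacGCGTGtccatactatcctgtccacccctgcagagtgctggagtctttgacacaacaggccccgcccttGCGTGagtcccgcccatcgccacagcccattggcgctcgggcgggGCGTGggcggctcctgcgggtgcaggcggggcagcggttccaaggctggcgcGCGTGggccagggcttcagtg
Tpi1: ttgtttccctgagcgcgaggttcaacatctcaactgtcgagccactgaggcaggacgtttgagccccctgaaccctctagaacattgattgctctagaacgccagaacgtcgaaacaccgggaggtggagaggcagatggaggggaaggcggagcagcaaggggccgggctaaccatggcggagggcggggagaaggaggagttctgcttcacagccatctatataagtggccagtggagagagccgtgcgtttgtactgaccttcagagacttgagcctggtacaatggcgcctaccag
A match is a run of letters and no evidence of binding.

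Against FVB-sFB, the pluripotent cells had far more of the neuronal-type glucose transporter Slc2a3 and more of Slc2a1, Hk2, Aldoc, Pdk1, Pdhb and Fbp2, and less of Pfkfb4, Eno2, Pdk4 and both measured non-muscle glycogen phosphorylases, Pygb and Pygl. The sFB-protein-iPS cells had less Pkm, Tpi1, Ldha, Pfkp and Pygb than the mean of the ES lines. Against C57-mES alone only Pkm and Pygb of these were called. A gene was called where limma's adjusted p was under 0.05 and the change was at least 2-fold. Between sFB-protein-iPS and FVB-sFB, 8 of the 38 genes were higher and 9 lower, while 22.9% of all genes were called (11.6% higher and 11.4% lower) and the listed genes reached 44.7%. The median log2 fold change of the 38 was 0.16, and that of all genes 0.03. Between the mean of the 3 ES lines and FVB-sFB, 8 were higher and 5 lower (34.2%), with 22.6% of all genes called (11.6% higher and 10.9% lower), and medians of 0.16 for the 38 and 0.01 for all genes. Both comparisons share the FVB-sFB arrays. The shares of all genes include genes at background, which are rarely called. Of the 9991 genes above background on all 4 arrays of at least 1 group, 3798 were called for sFB-protein-iPS and 3736 for the ES mean. Of the listed genes 36 were among these 9991, with 8 higher and 9 lower for sFB-protein-iPS and 8 higher and 5 lower for the ES mean. The share of increases among all calls depended on scaling: for sFB-protein-iPS against FVB-sFB it was 50.4% after quantile normalization, 33.9% after median centring, where the median of all genes was 0.14, and 16.4% in the deposited log2 values, which were not normalized between arrays and whose median over all genes stood at -0.41. There the split of the listed genes was 6 higher and 10 lower after median centring, and 3 higher and 13 lower in the deposited values. For the ES mean against FVB-sFB the shares were 51.5%, 47.4% and 35.1%, and the median of all genes in the deposited values -0.15. No listed gene that was called changed sign under any of 29 settings, some of which keep the fold changes of the main fit and could not change a sign. On all 16 pluripotent arrays 9 of the 38 genes lay above every FVB-sFB array (15.6% of all genes did so), and 6 lay below every one (14.7% of all genes).

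**Figure D1:**
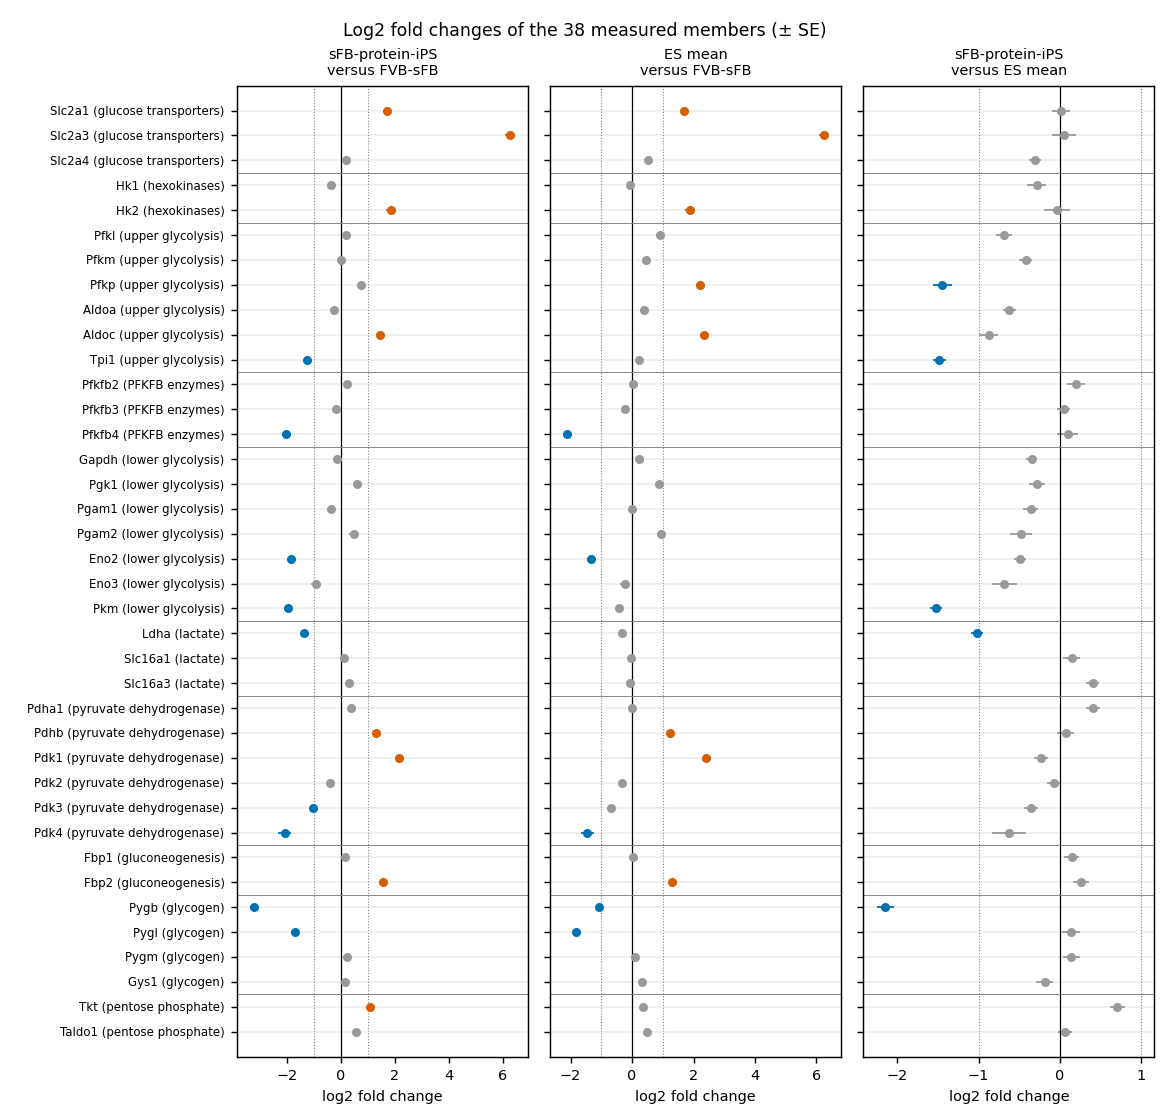
Log2 fold change (horizontal axis) of each of the 38 measured genes, grouped by role, for sFB-protein-iPS against FVB-sFB, the ES mean against FVB-sFB, and sFB-protein-iPS against the ES mean; bars are standard errors of the fit, dotted lines mark 2-fold, orange is called higher, blue called lower and grey not called. The first 2 panels hold 8 orange points each, with Slc2a3 beyond 6 log2 units, and the third holds 5 blue points and no orange one.

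Glucose transporters showed the widest difference. Slc2a3, the high-affinity transporter of neurons, read 14.36, 14.48, 14.36 and 14.51 log2 units on the sFB-protein-iPS arrays, 14 to 14.94 (median 14.38) on the 12 ES arrays, and 8.64, 8.70, 7.61 and 7.64 on the FVB-sFB arrays. The groups did not overlap, and even the brighter FVB-sFB pair stayed more than 5 log2 units below the dimmest ES array. This was 77.9-fold higher in sFB-protein-iPS (log2 fold change 6.28 ± 0.18, SE, adjusted p = 3.3e-20 in limma) and 75.2-fold higher in the ES mean (6.23 ± 0.15, adjusted p = 3.19e-22). In RNA of a whole sample, fewer cells of a type and less RNA per cell cannot be told apart. Slc2a1, the basal transporter of most cells, read 13.53, 13.67, 13.52 and 13.77 in sFB-protein-iPS, 12.94 to 14.70 (median 13.45) on the ES arrays, and 12.23, 12.02, 11.66 and 11.72 in FVB-sFB. Again no pluripotent array reached down to the fibroblast-titled ones. The difference was 1.71 ± 0.14 log2 units for sFB-protein-iPS (adjusted p = 2.35e-11; 0.89 and no call in the deposited values) and 1.70 ± 0.11 for the ES mean (adjusted p = 3.48e-13). Slc2a4, the insulin-responsive transporter of muscle and fat, lay between 6.39 and 7.28 on all arrays, above background on none of the 4 arrays of sFB-protein-iPS or of FVB-sFB, and was not called in any comparison.

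Hexokinase traps glucose in the cell, and here the inducible form moved while the housekeeping form did not pass. Hk2 read 13.89, 13.95, 13.77 and 13.95 in sFB-protein-iPS, 12.66 to 15.43 (median 13.98) on the ES arrays and 12.54, 12.45, 11.63 and 11.48 in FVB-sFB. The lowest ES array, of C57-mES, was only just above the highest FVB-sFB array. Hk2 was 3.64-fold higher in sFB-protein-iPS (1.87 ± 0.20, adjusted p = 7.5e-09) and 3.73-fold higher in the ES mean (1.90 ± 0.16, adjusted p = 9.44e-11). Hk1 read 6.88 to 7.69 in sFB-protein-iPS, 7.28 to 8.09 on the ES arrays and 7.52 to 7.90 in FVB-sFB, and was not called.

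Of the 6 upper glycolysis genes measured, 1 was higher and 1 lower in sFB-protein-iPS, and 2 were higher in the ES mean. Aldoc, the brain-type aldolase, read 9.07, 8.98, 8.98 and 8.81 in sFB-protein-iPS, 9.51 to 10.28 (median 9.77) on the ES arrays and 7.13, 7.16, 7.82 and 7.90 in FVB-sFB, so that 3 levels followed each other without overlap. It was 2.74-fold higher in sFB-protein-iPS than in FVB-sFB (1.46 ± 0.14, adjusted p = 1.25e-09; 0.52 and no call in the deposited values) and 5.03-fold higher in the ES mean (2.33 ± 0.12, adjusted p = 1.24e-15). Aldoa, the general aldolase, was bright everywhere (12.60 to 13.61) and not called. Pfkp, the platelet-type phosphofructokinase subunit, read 10.71, 10.88, 10.79 and 10.81 in sFB-protein-iPS, 10.99 to 13.86 (median 12.31) on the ES arrays and 10.06, 9.83, 10.12 and 10.11 in FVB-sFB. All groups were separate, but the sFB-protein-iPS difference of 0.76 log2 units was under the 2-fold limit, while the ES mean was 4.62-fold higher than FVB-sFB (2.21 ± 0.12, adjusted p = 7.98e-15). The muscle-type subunit Pfkm and the liver-type subunit Pfkl were not called against FVB-sFB. Tpi1, which interconverts the triose phosphates, read 12.61, 12.72, 12.83 and 12.57 in sFB-protein-iPS, 13.33 to 14.86 (median 14.40) on the ES arrays and 13.84, 13.90, 14.09 and 13.89 in FVB-sFB. Here the sFB-protein-iPS arrays were the lowest of all, 2.38-fold below FVB-sFB (-1.25 ± 0.09, adjusted p = 5.23e-12), and the ES arrays spanned the FVB-sFB values (log2 fold change 0.23, not called).

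**Figure D2:**
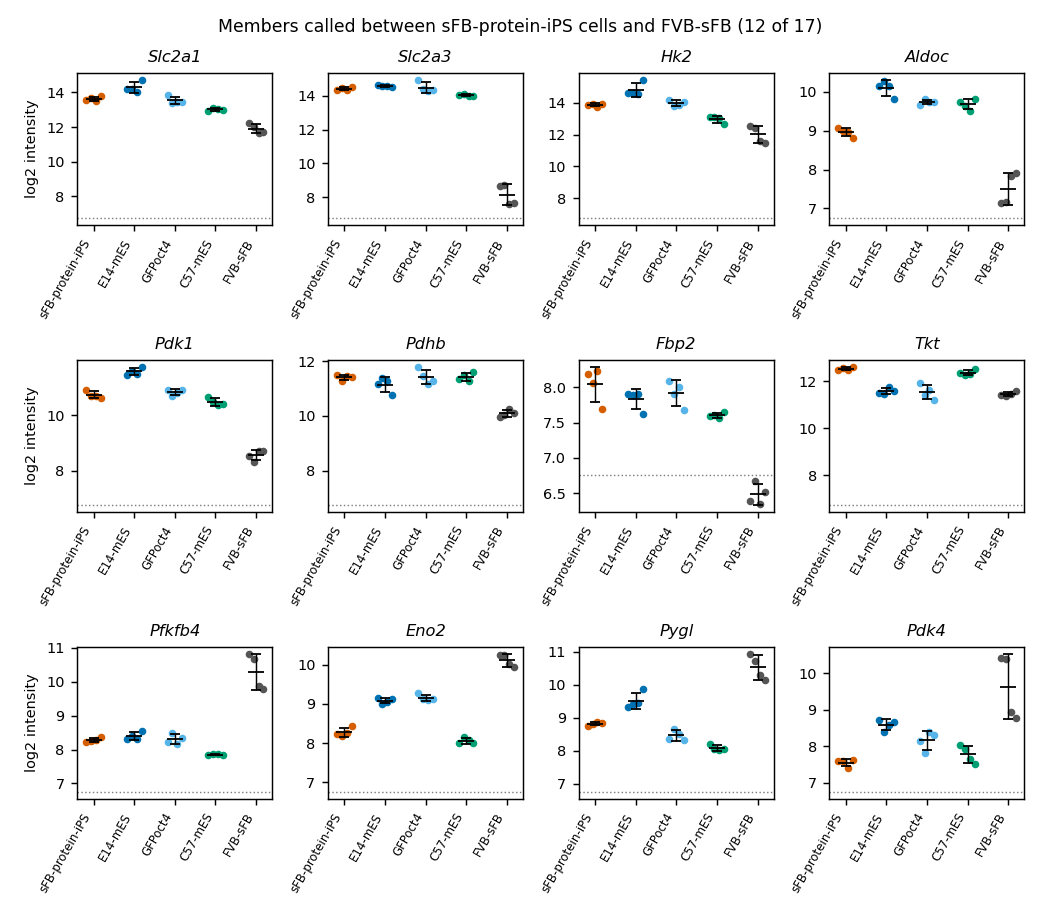
Log2 intensity (vertical axis) of 12 of the 17 genes called between sFB-protein-iPS and FVB-sFB; points are arrays, bars the mean ± SD of 4 arrays, and the dotted line the mean background level. Slc2a3 sits at 13.997 or above on every pluripotent array and at 8.704 or below in FVB-sFB, while Pfkfb4, Eno2, Pygl and Pdk4 are highest in FVB-sFB.

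The PFKFB enzymes make and break the sugar bisphosphate that switches phosphofructokinase on. Pfkfb4 read 8.22, 8.25, 8.29 and 8.36 in sFB-protein-iPS, 7.84 to 8.55 (median 8.27) on the ES arrays and 10.81, 10.68, 9.89 and 9.78 in FVB-sFB. Every pluripotent array lay more than 1 log2 unit below every FVB-sFB array. It was 4.03-fold lower in sFB-protein-iPS (-2.01 ± 0.16, adjusted p = 1.98e-11) and 4.3-fold lower in the ES mean (-2.11 ± 0.13, adjusted p = 9.69e-14). Its second probe, above background on 3 of the 20 arrays, gave -0.57 and -0.60 for the same differences. Pfkfb2 (8.20 to 9.20 over all arrays) and Pfkfb3 (6.53 to 7.14, partly at background) were not called.

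Of the 7 lower glycolysis genes measured, 2 were lower in sFB-protein-iPS and 1 in the ES mean, and none was higher at 2-fold. Eno2, the neuronal enolase, read 8.22, 8.18, 8.25 and 8.43 in sFB-protein-iPS, 7.99 to 9.28 (median 9.08) on the ES arrays and 10.26, 10.25, 10.01 and 9.94 in FVB-sFB. No array of the pluripotent groups overlapped FVB-sFB. It was 3.59-fold lower in sFB-protein-iPS (-1.85 ± 0.09, adjusted p = 9.68e-16) and 2.55-fold lower in the ES mean (-1.35 ± 0.07, adjusted p = 6.46e-15). Pkm, the pyruvate kinase of most tissues, whose splice forms this gene-level value does not separate, read 12.52, 12.33, 12.34 and 12.39 in sFB-protein-iPS, 13.41 to 14.57 (median 13.75) on the ES arrays and 14.45, 14.25, 14.46 and 14.19 in FVB-sFB. It was 3.85-fold lower in sFB-protein-iPS than in FVB-sFB (-1.94 ± 0.09, adjusted p = 1.28e-15), and the ES mean, at -0.42, was not called. Gapdh, the most familiar enzyme of the path, stayed between 14.95 and 15.54 on all 20 arrays on its chosen probe. That probe was near the top of the range, with a raw 55184 on E14-mES replicate 3, where the brightest probe read 61468. Whether this narrowed its differences was not tested. The second Gapdh probe gave 0.13 in sFB-protein-iPS and 0.63 in the ES mean against FVB-sFB (-0.13 and 0.22 on the chosen probe). Between sFB-protein-iPS and the ES mean it gave -0.51 (-0.35 on the chosen probe). Gapdh, Pgk1, Pgam1, Pgam2 and the muscle enolase Eno3 were not called against FVB-sFB, although Pgk1, which makes ATP in the path, lay higher on all 16 pluripotent arrays (0.59 ± 0.12 in sFB-protein-iPS, 0.87 ± 0.10 in the ES mean). Pgk1 was dim on its probe, at 7.45 to 7.57 in sFB-protein-iPS and 7.39 to 8.30 on the ES arrays. In FVB-sFB it read 6.84 to 7.02, just above background levels of 6.725 to 6.782. Whether this floor narrowed its differences was not tested.

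At the lactate branch, Ldha, which turns pyruvate into lactate, read 12.93, 12.90, 12.87 and 13.02 in sFB-protein-iPS, 13.24 to 14.74 (median 13.94) on the ES arrays and 14.25, 14.31, 14.31 and 14.29 in FVB-sFB. All sFB-protein-iPS arrays were below all others. It was 2.56-fold lower in sFB-protein-iPS than in FVB-sFB (-1.36 ± 0.09, adjusted p = 6.18e-13), whereas the ES mean differed by -0.34 and was not called. The lactate exporters Slc16a1 (6.11 to 6.77) and Slc16a3 (6.67 to 7.38) lay at or near background and were not called.

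At the entry to mitochondria, subunit and kinase genes split by member. Pdk1, a hypoxia-responsive kinase that switches pyruvate dehydrogenase off, read 10.92, 10.70, 10.69 and 10.64 in sFB-protein-iPS, 10.36 to 11.75 (median 10.85) on the ES arrays and 8.53, 8.30, 8.71 and 8.71 in FVB-sFB. The pluripotent arrays all lay more than 1 log2 unit above FVB-sFB. It was 4.51-fold higher in sFB-protein-iPS (2.17 ± 0.10, adjusted p = 7.08e-16) and 5.28-fold higher in the ES mean (2.40 ± 0.08, adjusted p = 7.83e-19). Pdk4, the kinase induced by fasting and fat oxidation, went the other way: 7.60, 7.59, 7.40 and 7.63 in sFB-protein-iPS, 7.52 to 8.73 (median 8.23) on the ES arrays and 10.43, 10.39, 8.93 and 8.79 in FVB-sFB. The FVB-sFB arrays 3 and 4 were close to the highest ES array, and arrays 1 and 2 far above it. Pdk4 was 4.23-fold lower in sFB-protein-iPS (-2.08 ± 0.25, adjusted p = 7.97e-08) and 2.75-fold lower in the ES mean (-1.46 ± 0.21, adjusted p = 8.42e-07), a call that was lost without FVB-sFB arrays 1 and 2 (-0.68). Pdk3 read 8.68 to 8.89 in sFB-protein-iPS, 8.90 to 9.38 on the ES arrays and 9.57 to 10.06 in FVB-sFB, just past 2-fold in sFB-protein-iPS (-1.03 ± 0.10, adjusted p = 2.82e-09) and under it without FVB-sFB arrays 3 and 4 (-0.81). Pdk2 (6.36 to 7.12) lay above background on every array of FVB-sFB only and was not called. Pdhb, the beta subunit of the dehydrogenase itself, read 11.49, 11.27, 11.45 and 11.43 in sFB-protein-iPS, 10.77 to 11.79 (median 11.32) on the ES arrays and 9.97, 10.03, 10.27 and 10.11 in FVB-sFB. It was higher in every pluripotent array, by 1.32 ± 0.13 in sFB-protein-iPS (adjusted p = 1.39e-09; 0.89 after median centring and 0.43 in the deposited values, both without a call) and by 1.24 ± 0.10 in the ES mean (adjusted p = 7.13e-11; 0.85 without a call in the deposited values). The second Pdhb probe, above background on 16 of the 20 arrays, gave 0.79 and 1.77 for the same differences. Between sFB-protein-iPS and the ES mean it gave -0.99, where the chosen probe gave 0.08. The alpha-subunit gene Pdha1 (11.84 to 12.64) was not called.

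Fbp2, the muscle fructose bisphosphatase of gluconeogenesis, read 8.19, 8.07, 8.23 and 7.69 in sFB-protein-iPS, 7.56 to 8.10 (median 7.79) on the ES arrays, and was not above background on any FVB-sFB array (6.34 to 6.68). Its difference is therefore a bound: at least 2.44-fold higher in sFB-protein-iPS (adjusted p = 4.95e-12; no call in the deposited values) and at least 2.04-fold in the ES mean (adjusted p = 2.49e-12). For such a bound, each dim array was given its background level wherever the probe read below it, and these values were averaged and set against the bright group's mean. Fbp1, the liver form, stayed between 6.36 and 7.26 and was not called.

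Glycogen phosphorylases release glucose from glycogen. Pygl, the liver form, read 8.76, 8.82, 8.87 and 8.85 in sFB-protein-iPS, 8.03 to 9.86 (median 8.43) on the ES arrays and 10.94, 10.72, 10.31 and 10.14 in FVB-sFB. It was 3.26-fold lower in sFB-protein-iPS (-1.70 ± 0.14, adjusted p = 3.19e-11) and 3.58-fold lower in the ES mean (-1.84 ± 0.11, adjusted p = 8.53e-14), and its second probe gave -0.84 and -1.09. Pygb, the brain form, read 6.31, 6.37, 6.85 and 6.41 in sFB-protein-iPS, with 1 of the 4 arrays above background, 8.22 to 8.98 (median 8.77) on the ES arrays and 9.54, 9.63, 9.86 and 9.77 in FVB-sFB. Those are 3 separate levels, with sFB-protein-iPS at the floor. Pygb was lower in sFB-protein-iPS (log2 fold change -3.21 ± 0.13, adjusted p = 2.9e-17, or -2.87 with the 3 arrays at or below background set to their background level) and in the ES mean (-1.07 ± 0.11, adjusted p = 1.87e-09; -0.95 and no call without FVB-sFB arrays 3 and 4). Pygm, the muscle form, was above background on 1 of 20 arrays, and glycogen synthase Gys1 was not called against FVB-sFB.

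In the non-oxidative pentose phosphate path, transketolase Tkt read 12.48, 12.55, 12.48 and 12.59 in sFB-protein-iPS and 11.41, 11.38, 11.44 and 11.58 in FVB-sFB, without overlap. It was 2.11-fold higher in sFB-protein-iPS (1.08 ± 0.11, adjusted p = 6.5e-09), close to the 2-fold limit and without a call after median centring (0.68) and in the deposited values (0.22). Its other probes, mostly at background, gave 0.32 and 0.45. The ES arrays ran from 11.21 to 12.52, and the ES mean was not called. Transaldolase Taldo1 (12.55 to 13.50) was not called.

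The next comparison set the sFB-protein-iPS cells beside the ES lines, the state they are named after. Against the ES mean, the iPS cells had less RNA of Pfkp, Tpi1, Pkm and Ldha and of the glycogen phosphorylase Pygb. The transporters, both hexokinases and the other measured enzymes of the path were not called. Of the 38 genes 5 were lower and none was higher in limma (4 were higher and 20 lower at an unadjusted p under 0.05 with no fold limit), while 3.26% of all genes were called (1.47% higher and 1.79% lower) and 13.2% of the listed ones. Of the 9991 genes above background on all 4 arrays of at least 1 group, 541 were called, as were 5 of the 36 listed genes among them. The median log2 fold change was -0.26 over the 38 and 0.01 over all genes. Scaling moved the share of increases among all calls to 15.2% after median centring and 4.52% in the deposited values, against 45.1% here. In the deposited values the median of all genes was -0.28, and the 5 genes stayed between 1.15 and 2.04 log2 units below that median.

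Pkm read 12.52, 12.33, 12.34 and 12.39 in sFB-protein-iPS, against 13.75, 13.86, 13.66 and 13.74 in E14-mES, 13.76, 13.54, 13.44 and 13.41 in GFPoct4 and 14.57, 14.56, 14.38 and 14.36 in C57-mES. The sFB-protein-iPS arrays lay below all 12 ES arrays. It was 2.88-fold lower than the ES mean (-1.52 ± 0.08, adjusted p = 5.46e-14) and was called against each ES line (E14-mES -1.36, GFPoct4 -1.14, C57-mES -2.07). Tpi1 read 12.61, 12.72, 12.83 and 12.57 in sFB-protein-iPS, against 14.55, 14.58, 14.70 and 14.86 in E14-mES, 14.64, 14.37, 14.39 and 14.42 in GFPoct4 and 13.36, 13.36, 13.39 and 13.33 in C57-mES. It too was below every ES array, 2.79-fold below the ES mean (-1.48 ± 0.07, adjusted p = 4.69e-14), and its 3 probes gave -1.48, -1.32 and -1.02. Against C57-mES alone the difference was -0.68, and not called.

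Ldha read 12.93, 12.90, 12.87 and 13.02 in sFB-protein-iPS, against 14.45, 14.55, 14.52 and 14.74 in E14-mES, 14.24, 13.91, 13.97 and 13.81 in GFPoct4 and 13.32, 13.32, 13.30 and 13.24 in C57-mES. The order was sFB-protein-iPS, C57-mES, GFPoct4 and E14-mES from low to high, with no overlap between neighbours. The difference from the ES mean sat on the 2-fold limit (-1.02 ± 0.07, adjusted p = 2.9e-11) and fell under it, to -0.99, without GFPoct4 replicate 1 or without sFB-protein-iPS replicate 3. Pfkp read 10.71, 10.88, 10.79 and 10.81 in sFB-protein-iPS, against 13.07, 13.06, 12.91 and 13.86 in E14-mES, 12.69, 12.34, 12.14 and 12.29 in GFPoct4 and 11.12, 11.24, 11.13 and 10.99 in C57-mES. The order was the same as for Ldha, and C57-mES was close to sFB-protein-iPS. Pfkp was 2.72-fold lower than the ES mean (-1.44 ± 0.12, adjusted p = 3.75e-10). Its other probes gave smaller differences (-0.51, and -0.11 for a probe above background on no array), and the call was lost on the mean of the 3 probes (-0.69).

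Pygb was the largest difference of the 5. It read 6.31, 6.37, 6.85 and 6.41 in sFB-protein-iPS, against 8.22, 8.37, 8.25 and 8.75 in E14-mES, 8.30, 8.47, 8.79 and 8.78 in GFPoct4 and 8.88, 8.89, 8.98 and 8.89 in C57-mES. Every ES array was more than 1 log2 unit above the brightest sFB-protein-iPS array. The fitted difference was -2.15 ± 0.11 log2 units (adjusted p = 3.94e-14), and -1.80 with the 3 sFB-protein-iPS arrays at or below background set to that level. Pygb and Pkm were highest of the ES lines in C57-mES, whereas Tpi1, Ldha and Pfkp were lowest there.

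**Figure D3:**
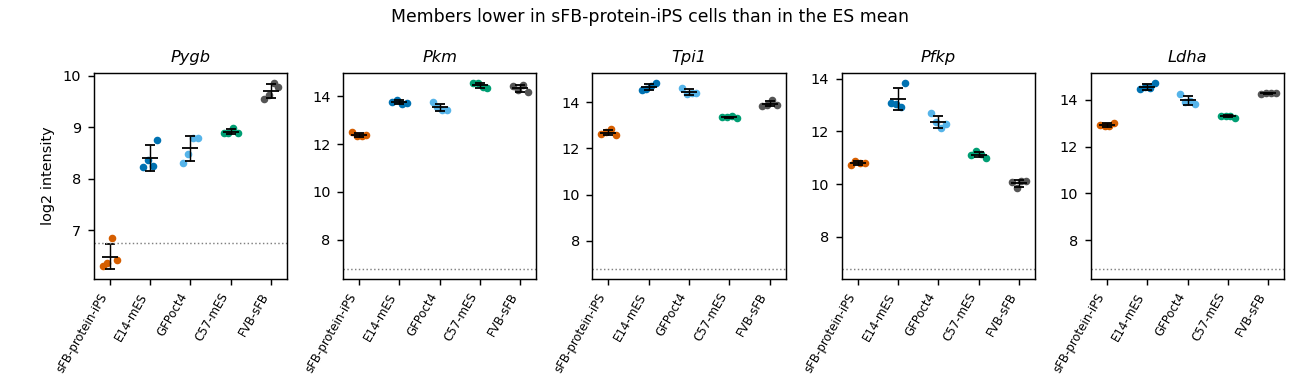
Log2 intensity (vertical axis) of the 5 genes lower in sFB-protein-iPS than in the ES mean; points are arrays, bars the mean ± SD of 4 arrays, the dotted line the mean background level. In all 5 panels the sFB-protein-iPS arrays lie below all 12 ES arrays, and for Pygb 3 of them are at or below background.

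Against the single lines, 8 of the 38 genes were lower in sFB-protein-iPS than in E14-mES (3.73% of all genes were called lower and 3.12% higher, 6.85% in all). Beside the 5 genes above these were Aldoc (-1.13 ± 0.14, adjusted p = 3.34e-07), Pfkl (-1.08 ± 0.13, adjusted p = 1.06e-07) and Pdk4 (-1.03 ± 0.25, adjusted p = 0.00175). Pfkl lost its call without E14-mES replicate 4 and on the mean of all probes, and its second probe gave 0.27. Pdk4 lost its call with no background correction, without E14-mES replicate 1 or 4, and without sFB-protein-iPS replicate 3. Against GFPoct4 the 5 genes above were lower (3.47% of all genes lower, 2.68% higher, 6.15% in all), of which Ldha was lost without GFPoct4 replicate 1 (-0.97). Against C57-mES 3 were lower (2.35% of all genes lower, 2.04% higher, 4.39% in all), namely Pygb (-2.43), Pkm (-2.07) and Pgam2, the muscle phosphoglycerate mutase. Pgam2 read 7.76, 7.80, 7.79 and 7.74 in sFB-protein-iPS, against 9.05, 8.95, 9.26 and 9.25 in C57-mES, 2.55-fold lower (-1.35 ± 0.17, adjusted p = 3.89e-07). No listed gene was higher in sFB-protein-iPS than in any of the 3 lines at 2-fold, although 4, 7 and 10 were higher at an unadjusted p under 0.05. Tkt was just under the limit, at 0.95 against E14-mES and 1.0 (1.995-fold) against GFPoct4. It was called higher against E14-mES without E14-mES replicate 3, and against GFPoct4 without E14-mES replicate 4, GFPoct4 replicate 1 or 3, sFB-protein-iPS replicate 1 or 3, or FVB-sFB arrays 1 and 2. These 3 comparisons share the sFB-protein-iPS arrays. Their shares of increases among all calls were 45.6%, 43.6% and 46.5% here, 11.0%, 17.3% and 24.3% after median centring, and 3.11%, 8.67% and 9.96% in the deposited values, whose medians of all genes were -0.41, -0.25 and -0.18. Markers of primitive endoderm, the extraembryonic lineage that can arise in pluripotent cultures, also differed between sFB-protein-iPS and the ES lines. The mean log2 intensity of Gata6, Gata4, Sox17 and Sox7 was 9.35 to 9.44 on the sFB-protein-iPS arrays, against 6.75 to 6.83 in E14-mES, 7.49 to 7.60 in GFPoct4 and 7.27 to 7.34 in C57-mES. All 4 markers lay above background on every sFB-protein-iPS array, and Gata6, Sox17 and Sox7 were called higher than the ES mean, while Gata4 (0.35) was not. Of the 10 fibroblast markers 3 were called lower in sFB-protein-iPS than in the ES mean, and 0 higher. The 3 were Dcn (-2.28), Fbln2 (-1.99) and Thy1 (mean of 8.20, against 9.18 in E14-mES, 9.79 in GFPoct4 and 9.22 in C57-mES). Pdgfra averaged 7.85 in sFB-protein-iPS, against 6.71 in E14-mES, 8.53 in GFPoct4 and 6.71 in C57-mES, and was called higher than in E14-mES and in C57-mES. The part of these markers' cells in the lower glycolytic genes was not tested.

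The ES lines also differed among themselves. E14-mES had more RNA of 9 of the 38 genes than C57-mES, from the transporter Slc2a1 to Ldha, and less of none at 2-fold. Among all genes 7.19% were called (4.04% higher and 3.15% lower), against 23.7% of the listed ones. Of the 9991 genes above background on all 4 arrays of at least 1 group, 1192 were called, as were 9 of the 36 listed genes among them. At an unadjusted p under 0.05, 9 of the 38 were lower, and the lowest value was -0.95, for Pgam2. Increases made up 56.2% of all calls here, 73.3% after median centring and 80.9% in the deposited values, whose median of all genes was 0.24. Relative to that median the 9 genes still differed by 1.00 to 2.05 log2 units. The fibroblast list averaged 6.71 to 6.79 per array in E14-mES, 7.76 to 7.93 in GFPoct4 and 7.06 to 7.27 in C57-mES, with Dcn (means of 6.33, 11.66 and 8.68) and Fbln2 (7.29, 10.04 and 9.19) the 2 of its 10 genes called between E14-mES and C57-mES. Of the 10 pluripotency markers 2 were called higher in E14-mES than in C57-mES, Tdgf1 (means of 10.70 and 7.33) and Zfp42 (12.88 and 10.70). The part of either list in these differences was not tested.

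Pfkp read 13.07, 13.06, 12.91 and 13.86 in E14-mES against 11.12, 11.24, 11.13 and 10.99 in C57-mES, 4.31-fold higher (2.11 ± 0.15, adjusted p = 1.17e-11), with 0.89 from its second probe. Hk2 read 14.64, 14.63, 14.53 and 15.43 in E14-mES against 13.08, 13.14, 13.06 and 12.66 in C57-mES, 3.54-fold higher (1.82 ± 0.20, adjusted p = 3.7e-08). Pygl read 9.33, 9.41, 9.44 and 9.86 in E14-mES against 8.21, 8.05, 8.03 and 8.05 in C57-mES, 2.69-fold higher (1.43 ± 0.14, adjusted p = 3.87e-09), with 0.40 from its second probe. In all 3 genes the groups were far apart, and E14-mES replicate 4 was the brightest array. The other 6 were Tpi1 (1.31), Ldha (1.27), Slc2a1 (1.26), Pdk1 (1.11), Pfkl (1.05) and Eno2 (1.03). Pfkl was not called without E14-mES replicate 4, and its second probe gave -0.17. Pfkl, Tpi1 and Pygl lost their calls on the mean of all probes.

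GFPoct4 lay between the other lines, by group mean, in 8 of these 9 genes, and above both in Eno2. Against C57-mES it had 3 genes higher and 1 lower (7.69% of all genes were called, 4.28% higher and 3.41% lower). Pfkp was higher by 1.25 ± 0.15 (adjusted p = 1.1e-07), Eno2, at 9.28, 9.13, 9.10 and 9.12 in GFPoct4 against 7.99, 8.15, 8.07 and 8.01 in C57-mES, by 1.10 ± 0.09 (adjusted p = 1.58e-10) and Tpi1 by 1.09 ± 0.09 (adjusted p = 3.07e-10). Pfkp and Tpi1 lost their calls on the mean of all probes, and the second Pfkp probe gave -0.11. Pgam2 read 7.28, 7.29, 7.59 and 7.65 in GFPoct4 against 9.05, 8.95, 9.26 and 9.25 in C57-mES, 3.19-fold lower (-1.67 ± 0.17, adjusted p = 6.16e-09). Between E14-mES and GFPoct4, 1.9% of all genes were called (0.729% higher and 1.17% lower), and of the 38 Pygl was higher (1.05 ± 0.14, adjusted p = 2.26e-06) and Gys1 lower (-1.0 ± 0.12, adjusted p = 1.15e-06). Gys1, which builds glycogen, read 7.29, 7.34, 7.08 and 7.16 in E14-mES against 8.62, 8.31, 7.86 and 8.10 in GFPoct4, and sat on the 2-fold limit, being lost in 14 of 29 settings. Pygl read 9.33, 9.41, 9.44 and 9.86 in E14-mES against 8.36, 8.67, 8.50 and 8.33 in GFPoct4. Both calls were lost without E14-mES replicate 4. Increases made up 38.4% of all calls, 56.3% after median centring and 74.7% in the deposited values, whose median of all genes was 0.17.

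**Figure D4:**
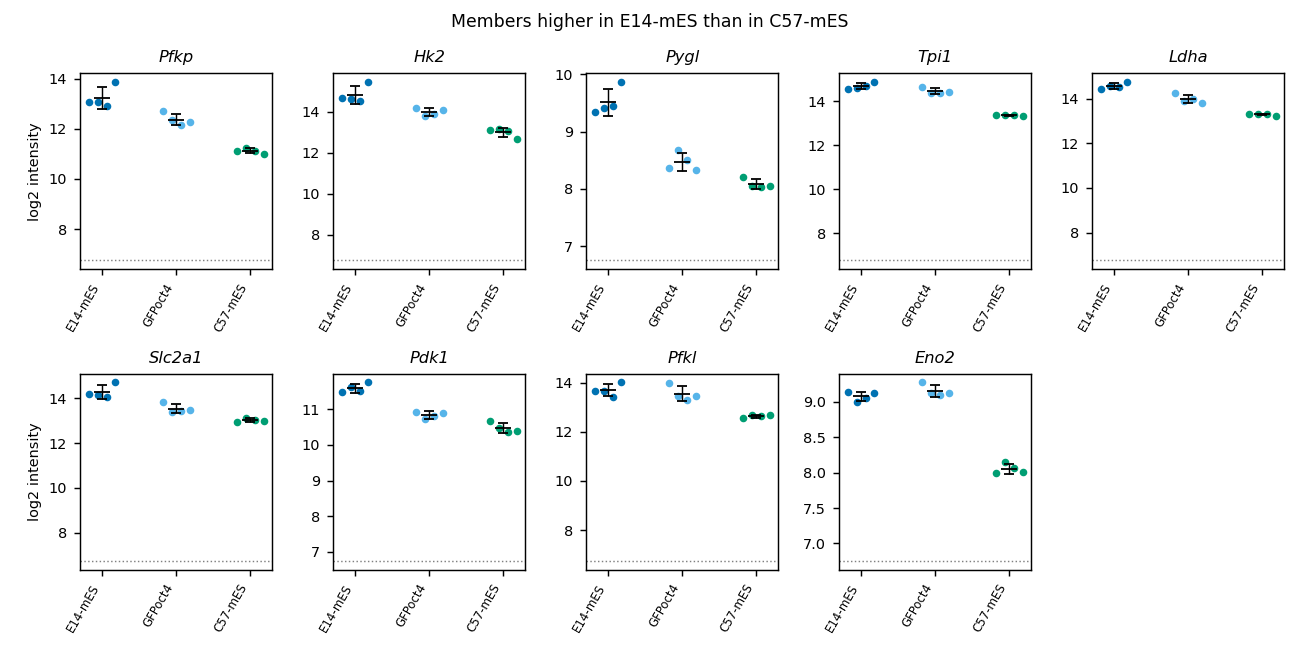
Log2 intensity (vertical axis) of the 9 genes higher in E14-mES than in C57-mES, with GFPoct4 between them; points are arrays, bars the mean ± SD of 4 arrays, the dotted line the mean background level. E14-mES lies above C57-mES on all arrays in each panel, and for Eno2 GFPoct4 sits at the E14-mES level.

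By group mean, E14-mES was the highest of the 5 groups in 12 of the 38 genes, a position it held in 17.9% of all genes, and sFB-protein-iPS was the lowest in 11, against 14.7% of all genes. FVB-sFB was the lowest group in 15 (32.3% of all genes) and the highest in 9 (30% of all genes). Among the 4 pluripotent groups E14-mES was highest in 15 and sFB-protein-iPS lowest in 16, both against 23.6% of all genes. Across the 9 comparisons 21 genes were called at least once. The other 17 had log2 fold changes between -0.92 and 0.87, and include Gapdh, Aldoa, Pgk1, Pgam1, Pfkm, Hk1, Pdha1 and Taldo1, all above background on every array. For Pgk1 in FVB-sFB (6.84 to 7.02) this was by a small margin.

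Around the pathway, 99 further genes of sugar metabolism, its regulators and hypoxia-inducible genes were measured. Against FVB-sFB, sFB-protein-iPS had 11 higher and 15 lower, and the ES mean 12 higher and 14 lower (26.3% called in each, near the 22.9% and 22.6% of all genes). Of 23 further genes of glucose uptake and glycolysis, 2 were higher and 2 lower in sFB-protein-iPS. The transporter genes Slc2a6 and Slc2a13 were at least 6.28-fold and at least 4.52-fold lower, and the hexokinase-domain gene Hkdc1 at least 3.40-fold higher. Of 19 glycogen and sugar-nucleotide genes, 1 was higher and 5 lower, among them Pgm1 (-1.94), which links glucose phosphates to glycogen, the phosphatase-targeting subunit Ppp1r3c (-1.82), the glycogen primer Gyg (-1.77) and Ugp2 (-1.45), which makes the glucose donor. In the ES mean none of the 19 was higher and 4 were lower, with Gyg at -1.68 and Ugp2 at -1.49. Of 8 pentose phosphate genes, the nucleotide-precursor enzyme Prps1 was higher (1.46 in sFB-protein-iPS and 2.40 in the ES mean) and H6pd, the dehydrogenase of the endoplasmic reticulum, lower (-2.71 and -2.30). Of 16 genes around pyruvate dehydrogenase and gluconeogenesis, 1 was higher and 1 lower in each. The lower one was the glucose phosphatase G6pc3 (-1.39 in sFB-protein-iPS and -1.43 in the ES mean).

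Of 17 regulators, 4 were higher in sFB-protein-iPS and 6 in the ES mean than in FVB-sFB, and none was lower. These shares of 23.5% and 35.3% stand beside 22.9% and 22.6% of all genes called. The higher ones include the pluripotency genes Esrrb and Lin28a, and Txnip, which restrains glucose uptake (1.67 in sFB-protein-iPS and 1.55 in the ES mean). Hypoxia-inducible genes outside glycolysis did not move as 1 group. Of 16, sFB-protein-iPS had 2 higher and 6 lower (50% called), and the ES mean 2 higher and 5 lower (43.8% called). The histone demethylase Kdm3a was higher (2.26 and 2.51), while the vascular growth factor Vegfa (-1.82 and -1.16), the collagen hydroxylases P4ha1 (-2.28 and -2.21, with 3 of 4 and 8 of 12 arrays above background) and P4ha2 (-2.03 and -3.07) and the collagen crosslinker Lox (at least 426-fold in sFB-protein-iPS) were lower.

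Between sFB-protein-iPS and the ES mean, 5 of the 99 were higher and 3 lower (8.08%, with 3.26% of all genes called). Ddit4, a hypoxia- and stress-induced brake on mTOR signalling, read 9.64, 9.73, 9.72 and 9.59 in sFB-protein-iPS, against 12.65, 12.79, 12.87 and 12.60 in E14-mES, 12.15, 12.43, 12.36 and 12.43 in GFPoct4 and 10.85, 10.57, 10.83 and 10.90 in C57-mES. It was lower than in the ES mean (log2 fold change -2.28 ± 0.08, adjusted p = 3.47e-17). Egln3, an oxygen-sensing hydroxylase that hypoxia induces, was lower too (-1.65 ± 0.09, adjusted p = 4.01e-13), as was Pgm1 (-1.58 ± 0.09, adjusted p = 4.86e-13). By group mean all 3 showed the order of Ldha and Pfkp, with C57-mES nearest to sFB-protein-iPS and E14-mES highest. In the other direction the haem oxygenase Hmox1 was higher by 2.15 ± 0.11 (adjusted p = 6.25e-14), Hkdc1 by 1.83 ± 0.09 (adjusted p = 2.62e-14, with 4 of 12 ES arrays, all of GFPoct4, above background, and 1.63 with the others at their background level), the pentose phosphate lactonase Pgls by 1.18 ± 0.13 (adjusted p = 8.47e-08), P4ha2 by 1.04 ± 0.07 (adjusted p = 4.35e-12) and the pyruvate dehydrogenase phosphatase Pdp2 by 1.00 ± 0.07 (adjusted p = 1.8e-11).

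Between E14-mES and C57-mES, 12 of the 99 were higher and 2 lower (14.1%, with 7.19% of all genes called, 4.04% higher and 3.15% lower). The increases include Egln3 (2.18 ± 0.11, adjusted p = 6.5e-14), Ppp1r3c (2.04 ± 0.13, adjusted p = 2.25e-12), Vhl, which marks hypoxia-inducible factor for destruction (2.00 ± 0.12, adjusted p = 1.05e-12, with 1 of 4 C57-mES arrays above background, and 1.81 with the others at their background level), Ddit4 (1.94 ± 0.10, adjusted p = 2.22e-14) and Txnip (1.74 ± 0.11, adjusted p = 2.59e-12). Of the 16 hypoxia-inducible genes 4 were higher, namely Ddit4, Ndrg1 (1.46), Vegfa (1.24) and Mxi1 (at least 1.87-fold), and Hmox1 was lower (-1.94 ± 0.13, adjusted p = 1.26e-11). GFPoct4 had 6 of these 16 higher than C57-mES and 1 lower (43.8% called, with 7.69% of all genes called). Among them Ddit4 stood at 1.56, Ndrg1 at 1.51 and Vegfa at 1.43. Culture oxygen, density and medium are not given in the labels, and their part was not tested.

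**Figure D5:**
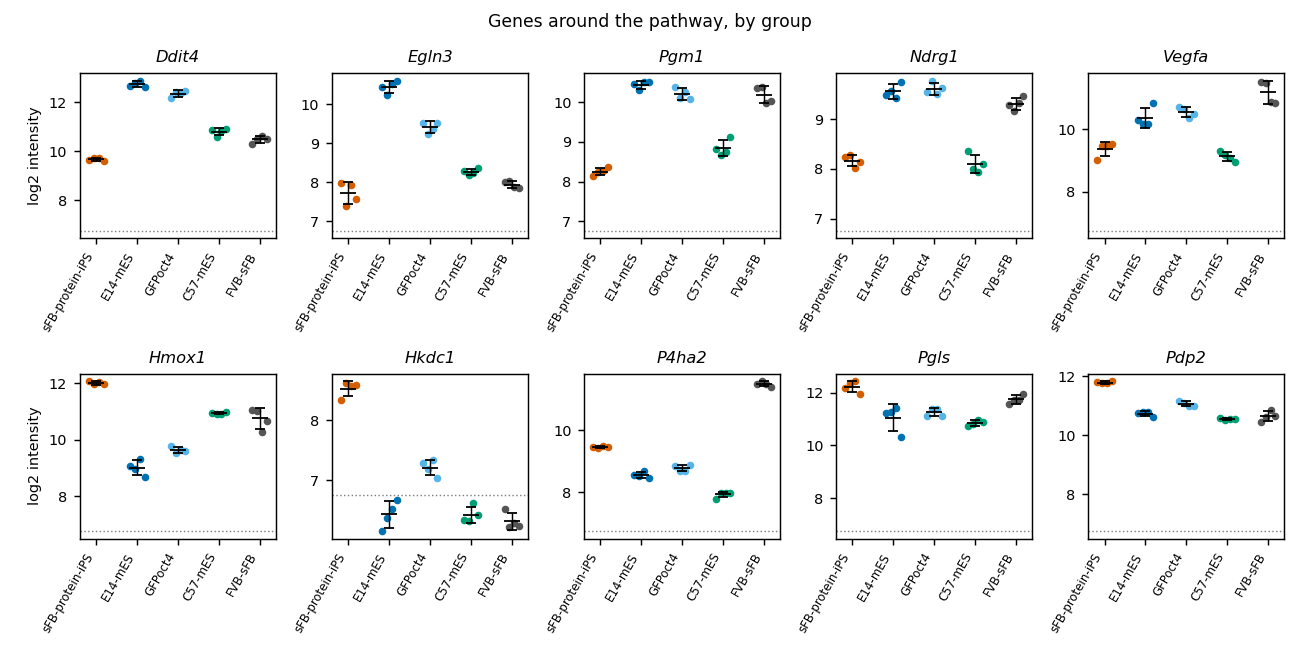
Log2 intensity (vertical axis) of 10 genes around the pathway, 8 of them called between sFB-protein-iPS and the ES mean, with Ndrg1 and Vegfa as further hypoxia-inducible genes; points are arrays, bars the mean ± SD of 4 arrays, the dotted line the mean background level. Ddit4, Egln3 and Pgm1 are lowest in sFB-protein-iPS and highest in E14-mES, and Hmox1 runs the other way.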

How the data were processed

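RNA (500 ng of total RNA per sample, extracted with TRIzol, per the labels' protocols) was hybridised to Illumina mouse bead arrays and exported with BeadStudio, per the submitters' processing notes. The deposited intensity table is not normalized, and the authors' deposited log2 value table equals the log2 of those intensities within 5e-09, so no background correction or normalization between arrays is visible in it. The intensities were corrected with normexp (offset 50), log2-transformed and quantile-normalized in limma 3.58.1 (R 4.3.3). Of 25697 probes, 23978 had 1 gene symbol and 1719 none, and the probe with the highest mean stood for each of 16593 genes. One limma model over the 5 groups gave every contrast, with Benjamini-Hochberg adjustment over all genes; a call needed an adjusted p under 0.05 and a 2-fold change. The script was tested on simulated data. The number of arrays limits precision. Alternatives covered background, scaling, probes, thresholds, a replicate block and left-out arrays. Values per array are given for genes called in the first 3 comparisons, up to the 8 largest each way, and elsewhere up to 3. Of each neighbouring list up to 4 called genes each way could be named. The genes, lists and background set were chosen with earlier results of these data known.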

Additional observations from a re-analysis of the deposited data

Results flagged for a closer look

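Among 190 gene and group pairs, 15 held an array whose gap to its nearest neighbour was over 0.829 of the group's range, where chance flags about 1 in 20. In E14-mES, replicate 4 read 15.43 for Hk2 (others 14.53 to 14.64), 13.86 for Pfkp (12.91 to 13.07) and 7.62 for Fbp2 (7.90 to 7.91). In GFPoct4, replicate 1 read 13.85 for Slc2a1 (13.40 to 13.46), 9.28 for Eno2 (9.10 to 9.13) and 13.07 for Taldo1 (12.83 to 12.87). In C57-mES, Hk2 read 12.66 (13.06 to 13.14) and Pfkm 11.85 (11.78 to 11.79) in replicate 4, Pygb 8.98 (8.88 to 8.89) in replicate 3 and Pygl 8.21 (8.03 to 8.05) in replicate 1. In sFB-protein-iPS, Pfkm read 11.10 (10.88 to 10.89) and Pfkfb3 7.05 (6.80 to 6.83) in replicate 4, and Pdk4 7.40 (7.59 to 7.63) and Pygm 6.31 (6.61 to 6.67) in replicate 3. In FVB-sFB, Pdha1 read 12.34 (12.14 to 12.15) in replicate 1.

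The effect against FVB-sFB differed between sFB-protein-iPS and the ES mean for 5 genes. FVB-sFB cancels in that difference, so it is the comparison of sFB-protein-iPS with the ES mean given above, and no further test. Pfkp was 0.76 log2 units above FVB-sFB in sFB-protein-iPS and 2.21 above it in the ES mean, a difference of -1.44. Tpi1 stood at -1.25 in sFB-protein-iPS and 0.23 in the ES mean, a difference of -1.48. Pkm stood at -1.94 and -0.42 in the same order, a difference of -1.52, and Ldha at -1.36 and -0.34, a difference of -1.02. Pygb stood at -3.21 in sFB-protein-iPS and -1.07 in the ES mean, a difference of -2.15, with 3 of its 4 sFB-protein-iPS arrays at or below background. Set to their background level, these arrays gave -2.87 against FVB-sFB and -1.80 against the ES mean, an alternative chosen after seeing the data.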

How the results depend on the processing

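Of 66 gene results recomputed under 29 settings, none changed sign, and 1866 of 1914 values kept their call. These totals include outcomes fixed in advance. The filter on dim probes, the replicate block and the dropped fold limit keep the fold changes of the main fit, so no sign could change there. With the fold limit dropped no call could be lost. Leaving out an array of a group outside a comparison left all arrays of that comparison in place. With no minimum fold change, the listed genes called numbered 28 (14 higher, 14 lower) for sFB-protein-iPS against FVB-sFB, 29 (19 higher, 10 lower) for the ES mean against FVB-sFB and 23 (4 higher, 19 lower) for sFB-protein-iPS against the ES mean. They numbered 26, 22 and 20 for sFB-protein-iPS against E14-mES, GFPoct4 and C57-mES, 24 for E14-mES and 22 for GFPoct4 against C57-mES, and 8 for E14-mES against GFPoct4. All genes called were then 8167, 9376, 6323, 6493, 6502, 4530, 6300, 6709 and 3263 in that order of comparisons, where they were 3806, 3743, 541, 1137, 1021, 729, 1193, 1276 and 315 with the 2-fold limit, and neighbouring genes 50, 61 and 47 in the first 3. In the deposited log2 values, 3 listed genes were higher in sFB-protein-iPS than in FVB-sFB (8 with normalization), 12 were called, all 12 lower, against the ES mean, and 20, 12 and 8 against E14-mES, GFPoct4 and C57-mES. There 5 were called between E14-mES and GFPoct4, neighbours numbered 17 against the ES mean, and all genes 1437, 2895 and 1165 for sFB-protein-iPS against the ES mean, E14-mES and C57-mES. After median centring 13, 9 and 6 listed genes were called for sFB-protein-iPS against E14-mES, GFPoct4 and C57-mES. On the mean of all probes 2 were called between GFPoct4 and C57-mES, and 0 between E14-mES and GFPoct4 in limma (13 had an unadjusted p under 0.05 on the chosen probes). That last count was 1 with no background correction and 1 without either pair of FVB-sFB arrays. The cause of these shifts was not tested.

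Leaving out 1 array gave 17 to 17 listed genes called (8 to 8 higher, 9 to 9 lower) for sFB-protein-iPS against FVB-sFB, 13 to 14 (8 to 9 higher, 5 to 5 lower) for the ES mean against FVB-sFB, and 4 to 5 (0 to 0 higher, 4 to 5 lower) for sFB-protein-iPS against the ES mean. The ranges were 6 to 10, 5 to 7 and 3 to 3 for sFB-protein-iPS against E14-mES, GFPoct4 and C57-mES, 8 to 10 for E14-mES and 4 to 5 for GFPoct4 against C57-mES, and 0 to 2 for E14-mES against GFPoct4, with 6 and 0 without E14-mES replicate 4. For all genes the ranges, in the same order of 9 comparisons, were 3781 to 3828, 3712 to 3764, 534 to 570, 1077 to 1200, 990 to 1064, 712 to 735, 1116 to 1240, 1264 to 1318 and 307 to 332, and for neighbours 25 to 27, 24 to 27 and 7 to 8 in the first 3. Replicate numbers did not pair the arrays: of 40 same-numbered pairs 5 correlated over 0.1 (r from -0.33 to 0.25), and 7 of 20 arrays correlated best with their own number. With the replicate number as a block all 66 gene results kept their call. Members near the background level, such as Slc16a1 and Pygm, have little room to show a decrease.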
